A study of Mus musculus with 24 samples.

Results

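The genes for the peroxisome proliferator-activated receptors (Ppara, Ppard, Pparg), for their obligate partners the retinoid X receptors (Rxra, Rxrb, Rxrg) and for 4 proteins that work on these receptors (Ppargc1b, Ncor1, Ncoa1, Med1) were followed in the liver of mice with and without the major urinary protein (Mup) genes. They were chosen by name, for their part in PPAR signalling. The rule uses no measured value, but the choice was made with earlier results of these data known. They make up 10 of the 25746 genes in the count files. All 10 passed the filter on low counts and are among the 12330 genes tested. RNAseq counts were available for 24 mice aged 12 weeks, 6 in each of 4 groups on a C57/BL6N background, namely male wild type (mWT), male knockout (mKO), female wild type (fWT) and female knockout (fKO), with 1 library per mouse. In the KO mice the whole Mup cluster had been removed from both chromosomes with CRISPR/Cas9, with guides upstream of Mup4 and downstream of Mup21, and all of them descend from a single male founder. The WT mice were littermates. All mice had been housed on standard chow, fasted for some hours and anaesthetised with isoflurane for a scan just before the liver was taken. The time of day at which each mouse was sampled is not given in the sources used here.

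PPARs and RXRs are nuclear receptors that sit together on DNA as pairs of 1 PPAR and 1 RXR, on a direct repeat of the half-site AGGTCA with a single base in between. PPARα is activated by fatty acids and switches on fatty acid oxidation, ketogenesis and ω-hydroxylation in the fasted liver. PPARγ drives lipid storage in adipose tissue and is scarce in a lean liver, and PPARδ is found in most tissues. RXR also pairs with the retinoic acid, vitamin D, thyroid hormone, oxysterol, bile acid and xenobiotic receptors. Coactivators such as the protein of Ncoa1 (SRC-1), the protein of Ppargc1b (PGC-1β) and the Mediator subunit encoded by Med1 pass the signal of a receptor to RNA polymerase, whereas the protein of Ncor1 recruits histone deacetylases and silences it.

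Total counts ranged from 15361901 to 26261394 per mouse, and levels are given as CPM, counts scaled to library size with TMM factors. Summed Mup counts were 272548 to 741314 in mWT and 70768 to 110248 in fWT libraries, against 0 to 10 in mKO and 0 to 11 in fKO libraries, as the genotype labels say. Albumin stood between 71911 and 126053 CPM in all mice, while Adipoq, the defining adipocyte gene, had at most 2 counts in any library. In the livers of fKO mice 2 and 3 the clock gene Arntl (BMAL1, the activator of the circadian loop) was at 16.9 and 15.6 CPM, whereas the other 4 fKO mice had between 0.585 and 1.37 CPM. These 2 libraries stood apart from their group in this gene, and the results for Ppara and the other results that move most with them are given with and without them.

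No member was called in either KO comparison. Of the 10 genes, 0 had an adjusted p under 0.05 for mKO against mWT (0.211% of all tested genes were called, 17 of those 26 genes being Mup genes) and 0 for fKO against fWT (0.0892%, all 11 of them Mup genes), in the quasi-likelihood test of edgeR, adjusted after Benjamini and Hochberg over all tested genes. None reached the unadjusted p of 0.01 used by the study as its cut-off, which 3.52% of tested genes passed in males and 0.876% in females. Ppara passed that cut-off in some alternative fits, and Ppard did in males without mWT mouse 2. The largest estimates were those of Ppara and Ppard in males, both lower in mKO mice, and Ppara had an estimate of the opposite sign in females. The clearest difference of the set was between the sexes, in Rxrg, the rarest RXR gene of the liver.

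**Figure D1:**
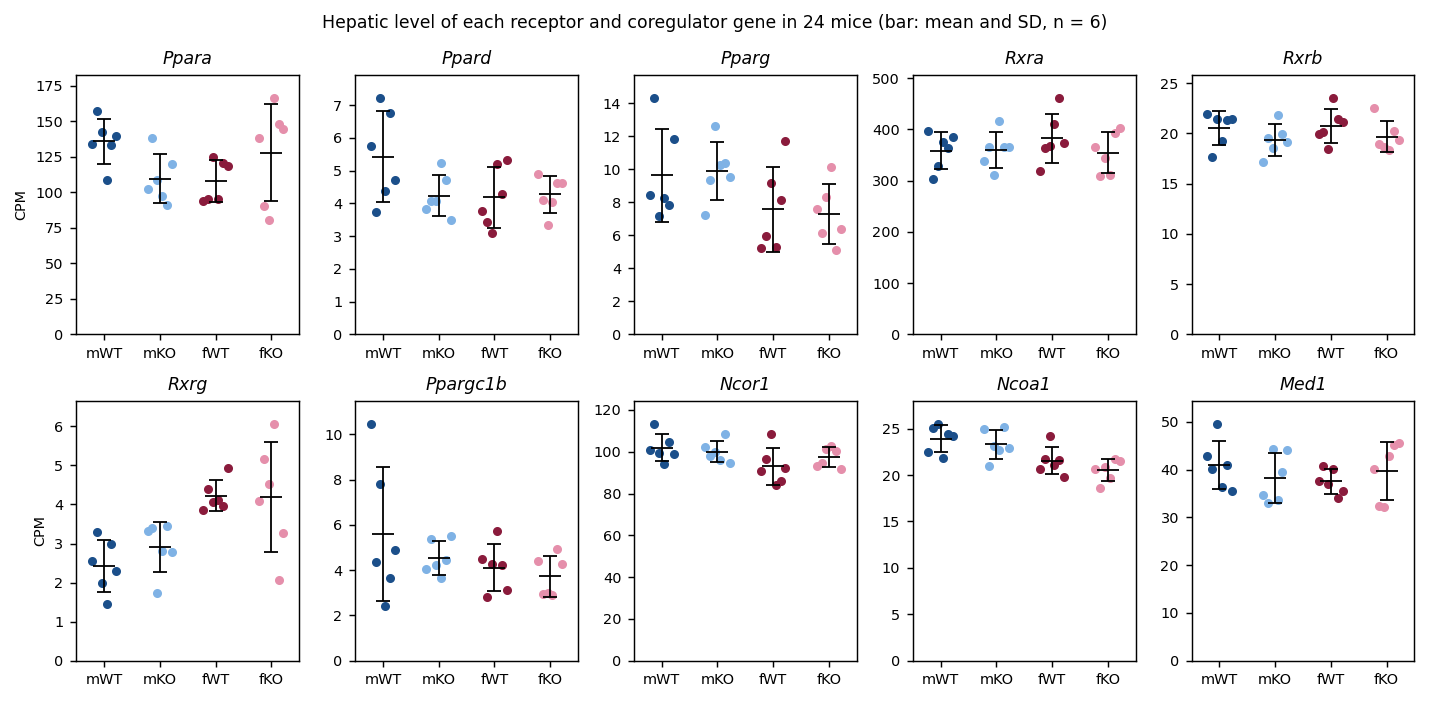
Level (CPM) of each of the 10 genes in every mouse, with 6 mice per group and the black bars giving the mean and SD. Rxrg is the gene whose mWT and fWT mice do not overlap (1.46 to 3.30 against 3.87 to 4.94 CPM), and the fKO mice of Ppara fall into 2 mice at 80.6 and 90.2 CPM and 4 between 138 and 166 CPM.

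Compared per length of exon, Rxra and Ppara were by far the most abundant members. Rxra was at 66.6 ± 7.16 CPM per kb and Ppara at 31.4 ± 6.23 CPM per kb (SD, n = 24), and Ppara alone stood above 90.5% of the tested genes with a known length. Ncor1 followed at 7.65 ± 0.541, and Rxrb at 5.05 ± 0.409 CPM per kb. The ranges of these 4 genes over the 24 mice did not overlap from one to the next. From Rxrb downwards each gene overlapped the next in the order Rxrb, Med1 (4.47 ± 0.543), Pparg (2.92 ± 0.828), Ncoa1 (2.60 ± 0.223), Rxrg (1.5 ± 0.495), Ppargc1b (1.13 ± 0.431) and Ppard (0.603 ± 0.135 CPM per kb). Behind these levels stand between 29 counts, for Rxrg, and 10017 counts, for Rxra, in a library, so the rarest members carry the largest counting error.

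**Figure D2:**
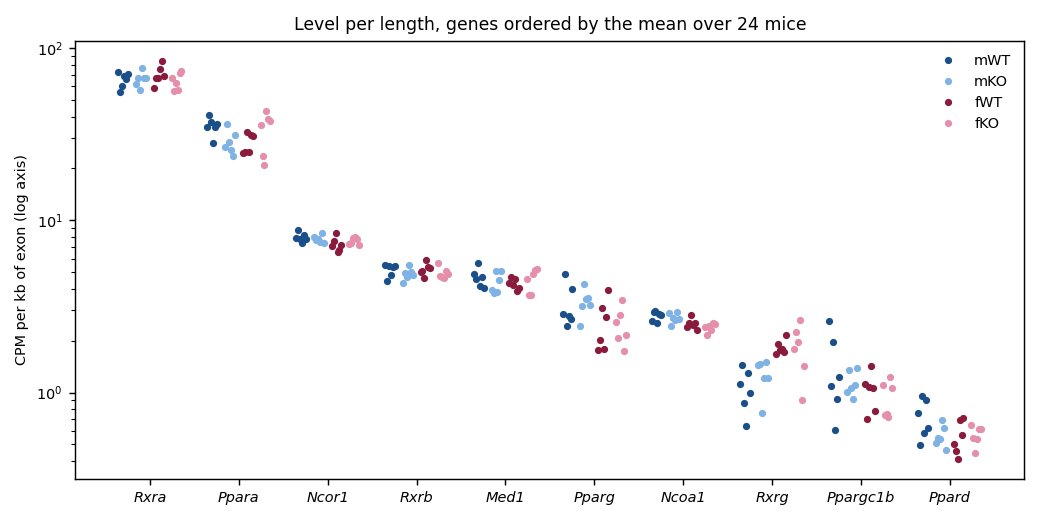
Level per kb of exon on a log axis for every mouse, with the genes ordered by their mean over all 24 mice and the colours giving the group. Rxra and Ppara form separate bands at the top, at 55.4 to 84.4 and 21 to 43.3 CPM per kb, and the lower genes overlap.

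Within each receptor family one gene dominated in all groups. Rxra gave 91.3% ± 0.832 of the summed per-length RXR level in mWT, 91.5% ± 0.293 in mKO, 90.8% ± 0.890 in fWT and 90.4% ± 1.53 in fKO mice (SD, n = 6). Ppara gave 89.9% ± 1.27 of the PPAR level in mWT, 87.7% ± 2.52 in mKO, 90.1% ± 1.66 in fWT and 91.2% ± 2.73 in fKO mice (SD, n = 6). The groups overlapped in both shares, which were not tested. For each unit of Ppara there were 1.89 ± 0.372 units of Rxra in mWT, 2.36 ± 0.458 in mKO, 2.51 ± 0.351 in fWT and 2.07 ± 0.572 in fKO mice (SD, n = 6), and the groups overlapped.

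Ppara (ENSMUSG00000022383, chromosome 15, 85734983 to 85802819 on GRCm38) was at 108, 137 and 157 CPM in mWT mice (lowest, median and highest of 6) and at 90.9, 105 and 138 CPM in mKO mice. Of the 6 mKO mice 3 lay below every mWT mouse, and the groups otherwise overlapped. The log2 fold change was −0.31 (95% interval −0.61 to −0.01, SE 0.145), with an unadjusted p of 0.0435, which 10.6% of all tested genes undercut at 0.05, and an adjusted p of 0.454 in edgeR. The estimate was the same where only mKO and mWT mice were fitted (unadjusted p = 0.00805, adjusted p = 0.233) and without fKO mice 2 and 3 (unadjusted p = 0.00573, adjusted p = 0.182), and left at −0.26 without mKO mouse 5 (unadjusted p = 0.0982). In females the order was turned around, with 93.7, 107 and 124 CPM in fWT and 80.6, 141 and 166 CPM in fKO mice. Here 4 fKO mice were above every fWT mouse and the other 2, mice 2 and 3, were below every one, for a log2 fold change of 0.24 (interval −0.06 to 0.54, adjusted p = 0.929 in edgeR). Without mice 2 and 3 it was 0.47, with an unadjusted p of 0.0003 and an adjusted p of 0.245. With all mice fitted no member had an unadjusted p under 0.05 in females, against 4.87% of tested genes.

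The difference between the male and the female KO effect on Ppara was −0.55 on the log2 scale (interval −0.98 to −0.13, SE 0.205). It had an unadjusted p of 0.0126 and was the 1 member of 10 under 0.05, against 5.96% of all tested genes, and it did not pass the adjustment (adjusted p = 0.816 in edgeR). For the interaction 0 members were called at an adjusted p under 0.05 (0.00811% of tested genes) and 0 at an unadjusted p under 0.01 (1.16%). Without fKO mice 2 and 3, a fit added after the data were seen, the difference was −0.78 with an adjusted p of 0.0287 in edgeR, and the 4 remaining fKO mice had 149 ± 12.1 CPM (SD). Those mice were left out for their Arntl level, but they are also the fKO mice with the least Ppara, so that the fit without them is not an independent test. Over all mice of both sexes the KO effect on Ppara was −0.03 (interval −0.24 to 0.18), and 0 of the 10 members were called there at either threshold (0.17% of tested genes at the adjusted and 2.83% at the unadjusted one).

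The level of Ppara moved with genes of the circadian clock, to a large part through fKO mice 2 and 3. After the mean of each group was subtracted from the log2 CPM, Pearson's r between Ppara and Arntl was −0.73 over the 24 libraries (Spearman's rho −0.68), and −0.32 over the 22 libraries without fKO mice 2 and 3, the libraries farthest from the Arntl median, with the group means taken anew (rho −0.37). Ppara had r = 0.85 with Tef and 0.73 with Dbp, PAR bZIP factors that are outputs of the clock, 0.85 with Per3, a clock repressor, and −0.33 with Nr1d1 (REV-ERBα). Without those mice the r was 0.59 with Tef, 0.38 with Dbp, 0.58 with Per3 and −0.06 with Nr1d1. Of the 18 clock genes tested 12 had an absolute r above 0.5 with Ppara, compared with 9.87% of all tested genes, and without the 2 mice 3 of 18 did, compared with 3.40%. The points of such a correlation share their libraries, and the r of Ppara with the total count was −0.10. The values describe co-variation and are not a test.

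**Figure D3:**
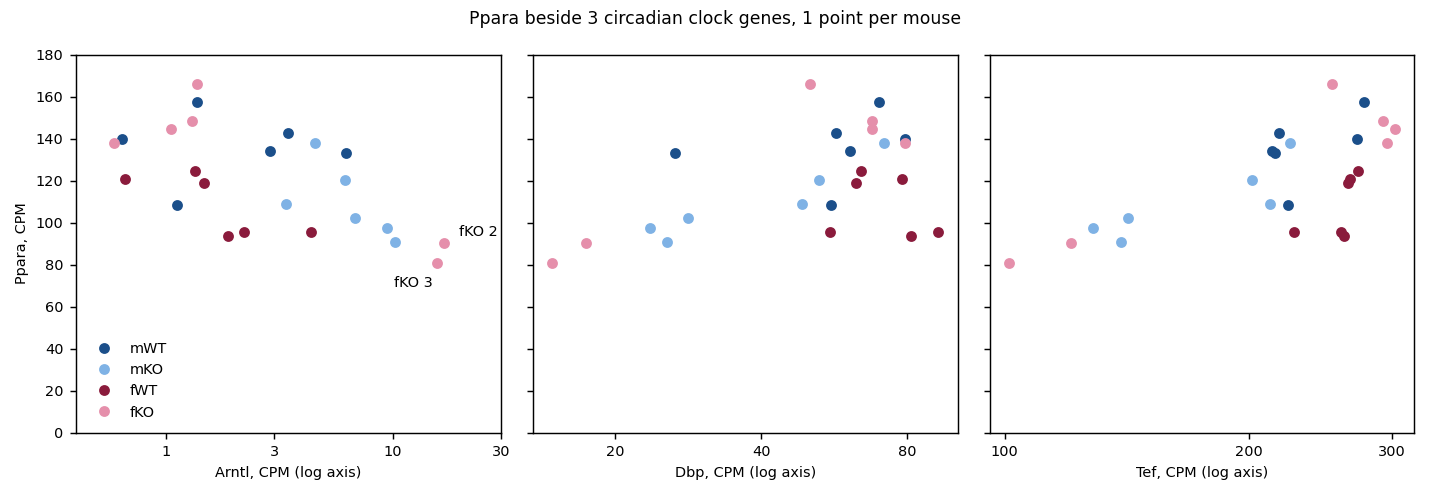
Ppara (CPM) against Arntl, Dbp and Tef (CPM, log axes), with 1 point per mouse coloured by group. The 2 fKO mice with the highest Arntl have the lowest Ppara, and the mKO mice with the most Arntl (9.37 and 10.2 CPM) lie at 97.5 and 90.9 CPM of Ppara.

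The groups of neither sex were evenly placed on that axis. In females the log2 fold change of Arntl was 1.63 (interval 0.10 to 3.15, adjusted p = 0.929 in edgeR), with fKO mice 2 and 3 the highest. Arntl was at 0.659, 1.67 and 4.33 CPM in fWT and at 0.585, 1.33 and 16.9 CPM in fKO mice (lowest, median and highest). The median was thus lower in fKO mice, and without mice 2 and 3 the highest fKO mouse was at 1.37 CPM. Over all mice the log2 fold change of Arntl was 1.49 (interval 0.42 to 2.57, adjusted p = 0.342 in edgeR). In males Arntl was at 0.637, 2.12 and 6.22 CPM in mWT mice (lowest, median and highest) and at 3.37, 6.47 and 10.2 CPM in mKO mice. The male log2 fold change was 1.36 (interval −0.16 to 2.89, adjusted p = 0.536 in edgeR). Adding the Arntl level as a covariate, a fit chosen after seeing the data, moved the male KO estimate of Ppara from −0.31 to −0.07 (unadjusted p = 0.533) and the female one from 0.24 to 0.32 (unadjusted p = 0.00537, adjusted p = 0.809). The difference between the sexes was then −0.39 (unadjusted p = 0.0141, adjusted p = 0.954). That fit used a single Arntl slope for all libraries, fKO mice 2 and 3 among them. The Arntl estimates were themselves higher in KO mice of both sexes, in females through fKO mice 2 and 3. The part of Arntl and that of the genotype in the Ppara level therefore cannot be told apart. A cause was not tested.

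Genes most like Ppara in this within-group measure, among protein-coding genes with a mean of at least 5 CPM, were Clmn (r = 0.86), Npc1 (r = 0.86) and Stk35 (r = 0.85), and the most opposed were Avpr1a (−0.84), Crtc3 (−0.83) and Nr2f6 (−0.83). Npc1 encodes a lysosomal cholesterol transporter and Avpr1a the hepatic vasopressin receptor. For Rxra the closest were Fto (0.86), Rgp1 (0.85) and Abcb8 (0.84) and the most opposed Sp3 (−0.89), Hnrnpu (−0.85) and Spast (−0.84). For Pparg they were Ces1d (0.76), Pon2 (0.76) and Plpp3 (0.76) and, at the other end, Cyp2c70 (−0.78), Ston2 (−0.74) and Slc3a1 (−0.72). All were taken over the same 24 libraries. Without fKO mice 2 and 3 the r with Ppara was 0.69 for Clmn, 0.76 for Npc1, 0.65 for Stk35, −0.60 for Avpr1a, −0.69 for Crtc3 and −0.59 for Nr2f6. Among the 45 pairs of members themselves the highest r was 0.77, between Ppard and Rxrb, both on chromosome 17, and the lowest −0.56, between Rxrb and Ncor1.

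The promoters were searched for the elements of these receptors and of the clock. RefSeq promoters of GRCm38.p6, from 250 bases before to 50 after each start, were at hand for 27025 genes, among them 9 members (all but Ppargc1b), 24 of the 34 PPARα target genes and 16 of the 19 core clock genes. The PPAR/RXR repeat, the half-site AGGNCA followed after 1 base by another AGGNCA, searched like the others on both strands, lay in the promoters of 0.451% of genes, of none of the 9 members and of 1 target gene, Fabp1. The E-box CACGTG, to which BMAL1 and CLOCK bind, lay in the promoters of 8.09% of genes, among them 5 of the 16 clock genes and none of the 9 members. The retinoic acid repeat, GGTTCA and AGTTCA with 5 bases between, lay in the promoters of 0.0074% of genes, which are Rarb and Gm52524. No match says only that these letters are not in the window. The 250 bases before the RefSeq start of Ppara, which lies inside the GENCODE gene given above, are shown for the member with the largest interaction (chr15:85735526-85735775, plus strand), 100 bases of Fabp1 as the target with a PPAR/RXR repeat (chr6:71199779-71199878, plus strand, repeat in capitals, 67 to 55 bases before the start and read from the opposite strand), and 100 bases of Rarb, an RXR partner, for the retinoid repeat (chr14:16575477-16575576, minus strand, repeat in capitals, 53 to 37 bases before the start). Fabp1 was named for its element and not by the rule for named genes.
Ppara: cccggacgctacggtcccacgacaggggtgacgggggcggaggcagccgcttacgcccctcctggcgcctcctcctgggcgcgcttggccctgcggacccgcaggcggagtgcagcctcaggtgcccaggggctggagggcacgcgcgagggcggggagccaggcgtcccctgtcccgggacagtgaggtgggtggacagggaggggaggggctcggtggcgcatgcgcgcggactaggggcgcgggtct
Fabp1: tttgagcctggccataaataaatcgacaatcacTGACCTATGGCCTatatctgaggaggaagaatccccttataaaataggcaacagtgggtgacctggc
Rarb: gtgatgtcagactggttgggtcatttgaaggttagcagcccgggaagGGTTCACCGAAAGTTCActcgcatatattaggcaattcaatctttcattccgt

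Ppard (ENSMUSG00000002250, chromosome 17, 28232700 to 28301474) was at 3.74, 5.23 and 7.21 CPM in mWT and at 3.51, 4.06 and 5.24 CPM in mKO mice (lowest, median and highest). The mWT mice 1, 3 and 5 were above all mKO mice and the remaining mice overlapped. The log2 fold change was −0.36 (interval −0.69 to −0.03, unadjusted p = 0.0341, adjusted p = 0.421 in edgeR), and without mWT mouse 3 it was −0.26 (unadjusted p = 0.120). Without mWT mouse 2 the unadjusted p was 0.00909 in edgeR. In females Ppard lay at 3.10 to 5.34 CPM in fWT and 3.35 to 4.89 CPM in fKO mice, a log2 fold change of 0.03 (interval −0.30 to 0.35).

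Pparg (ENSMUSG00000000440, chromosome 6, 115360951 to 115490399) was at 7.15, 8.35 and 14.3 CPM in mWT, 7.24, 9.92 and 12.6 CPM in mKO, 5.23, 7.05 and 11.7 CPM in fWT and 5.13, 6.99 and 10.1 CPM in fKO mice. The 4 groups overlapped throughout. Its KO effect was 0.04 (interval −0.38 to 0.46) in males and −0.06 (interval −0.49 to 0.36) in females on the log2 scale. Changes of a size within these intervals remain possible at this spread between mice.

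Rxra (ENSMUSG00000015846, chromosome 2, 27676440 to 27762957) was at 303, 369 and 396 CPM in mWT, 310, 365 and 416 CPM in mKO, 319, 371 and 461 CPM in fWT and 309, 355 and 403 CPM in fKO mice, with all groups overlapping. The log2 fold change was 0.01 (interval −0.18 to 0.19) in males and −0.11 (interval −0.30 to 0.08) in females. Rxrb (ENSMUSG00000039656, chromosome 17, 34031812 to 34038399), the RXR gene active in most tissues, ranged from 17.2 to 23.5 CPM over all mice, and its log2 fold changes were −0.08 (interval −0.23 to 0.07) in males and −0.08 (interval −0.23 to 0.07) in females.

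Rxrg (ENSMUSG00000015843, chromosome 1, 167598384 to 167639623) differed between the sexes. It was at 1.46, 2.43 and 3.30 CPM in mWT and at 3.87, 4.09 and 4.94 CPM in fWT mice, so that every mWT mouse was below every fWT mouse. With a log2 fold change of −0.80 for mWT against fWT (interval −1.24 to −0.37, SE 0.212, adjusted p = 0.00921 in edgeR) it was the 1 member of 10 called in WT mice, where 17.3% of all tested genes were called, and the 1 whose groups did not overlap, as was the case for 7.7% of tested genes. A share of 1 in 10 is no more than this background. The adjusted p lay between 0.00261 and 0.0283 in all 36 alternative fits.

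In KO mice Rxrg was at 1.74, 3.07 and 3.45 CPM in mKO and at 2.08, 4.31 and 6.05 CPM in fKO mice. The groups overlapped through fKO mice 5 and 6, and the log2 fold change was −0.52 (interval −0.94 to −0.10, adjusted p = 0.0952 in edgeR). Leaving out fKO mouse 5 gave −0.67 with an adjusted p of 0.0153, and adding the Arntl level as a covariate −0.62 with an adjusted p of 0.0480. In the other direction, leaving out fKO mouse 4 gave −0.39 (unadjusted p = 0.0669) and leaving out fKO mice 2 and 3 gave −0.40 (unadjusted p = 0.0940, adjusted p = 0.271). The sex difference in WT and that in KO mice were not shown to differ, since the interaction for Rxrg was 0.28 (interval −0.33 to 0.89, adjusted p = 0.925 in edgeR). Rxrg made up 1.5% ± 0.508 of the RXR level per length in mWT and 2.41% ± 0.342 in fWT mice (SD, n = 6), and 1.76% ± 0.368 in mKO and 2.63% ± 1.09 in fKO mice (SD, n = 6).

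Some marker genes of the other cells of the liver were also called between the sexes. Of all tested genes 17.3% were called in WT and 14.4% in KO mice. With lists of 7 or 8 genes, calls of 1 or 2 are not set apart from these shares. The summed level of 8 stellate cell markers was 210 to 336 CPM in mWT against 293 to 382 CPM in fWT mice, with all 8 lower in males by estimate and 2 of 8 called. Of 7 Kupffer cell markers 4 were called lower in mWT than in fWT mice (sums 73.9 to 148 and 134 to 242 CPM), and of 7 endothelial markers 2 (131 to 159 and 145 to 201 CPM). All 7 Kupffer, all 7 endothelial and the 3 tested lymphocyte markers were likewise lower in males by estimate. Of the hepatocyte markers 0 of 6 were called. The sums of 5 erythroid markers were 149 to 214 CPM in mWT and 40.6 to 67.8 CPM in fWT mice, with 1 of 5 called higher in males. This gap rests on Alas2, at 113 to 152 CPM in mWT and 8.48 to 16.4 CPM in fWT mice, whereas the globin genes overlapped. In KO mice 3 of 8 stellate, 0 of 7 Kupffer and 1 of 7 endothelial markers were called lower in males, and 5 of 5 erythroid markers were called higher. In both KO comparisons 0 genes of these lists were called. Their part in the level of Rxrg was not tested, and in a whole liver fewer cells of a type and less RNA per cell cannot be told apart.

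Including Rxrg 5 of 10 members had an unadjusted p under 0.05 for mWT against fWT (30.6% of tested genes) and 1 of 10 under 0.01 (18.2%). Besides Rxrg these were Ppara, Ppard, Ncor1 and Ncoa1, all with higher estimates in mWT mice. Ppara was 0.33 higher (interval 0.03 to 0.63, adjusted p = 0.121), with 5 of 6 mWT mice above every fWT mouse, and its adjusted p was 0.0332 where only these 12 libraries were fitted, 0.0268 without fKO mice 2 and 3 and 0.0102 with Arntl as a covariate. Ppard was 0.37 higher (interval 0.04 to 0.70, adjusted p = 0.111), and the estimate was 0.46 without mWT mouse 2 (adjusted p = 0.0457) and 0.27 without mWT mouse 3 (adjusted p = 0.276).

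Between the KO sexes 0 of 10 members were called at an adjusted p under 0.05 (14.4% of tested genes), 1 had an unadjusted p under 0.01 (15.9%), 3 had one under 0.05 (28.4%) and 0 had groups that did not overlap (7.26%). The closest was Ncoa1 (ENSMUSG00000020647, chromosome 12, 4247362 to 4477182), at 21, 23.0 and 25.2 CPM in mKO and 18.6, 20.8 and 21.8 CPM in fKO mice. Of the 6 mKO mice 5 were above every fKO mouse. Its log2 fold change was 0.18 (interval 0.05 to 0.31), with an unadjusted p of 0.00738 and an adjusted p of 0.0508 in edgeR. The estimate in WT mice was 0.15 (interval 0.02 to 0.28, adjusted p = 0.0992), and it was 0.19 without fWT mouse 3 (adjusted p = 0.0449) and 0.13 without fWT mouse 6 (adjusted p = 0.190). Ncoa1 shares 68 exon bases with an antisense gene, which was not analysed here. Without fKO mice 2 and 3 its difference between the KO sexes was 0.15 (adjusted p = 0.186).

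In Pparg, 3 of 6 mKO mice were above every fKO mouse, for a log2 fold change of 0.45 between the KO sexes (interval 0.02 to 0.87, adjusted p = 0.153). Ppara leaned the other way in KO mice, at −0.22 (interval −0.52 to 0.08, adjusted p = 0.327). That value was −0.45 with an adjusted p of 0.00693 without fKO mice 2 and 3, and −0.01 with Arntl as a covariate.

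**Figure D4:**
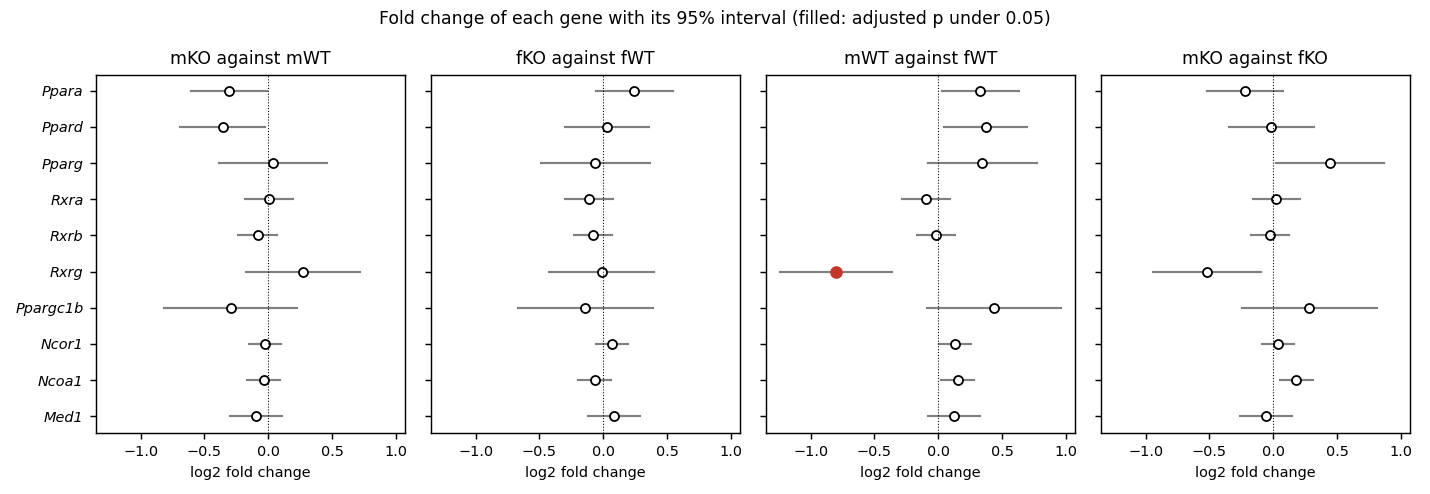
Log2 fold change of each gene in the 4 comparisons of groups, with its 95% interval from edgeR and filled circles for an adjusted p under 0.05. The 1 filled circle is Rxrg for mWT against fWT, at −0.80, and the intervals of Rxra, Rxrb, Ncor1 and Ncoa1 are the narrow ones.

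No coregulator was called for the genotype. Ncor1 (ENSMUSG00000018501, chromosome 11, 62316426 to 62458541) was at 94.0 to 113 CPM in mWT, 94.7 to 109 in mKO, 84.0 to 108 in fWT and 91.7 to 103 CPM in fKO mice, and the KO effects were −0.03 (interval −0.15 to 0.10) in males and 0.07 (interval −0.06 to 0.19) in females. It shares 82 exon bases with Pigl on the opposite strand, and the strand setting of the counting is not given in the sources used here. For Ncoa1 the KO effects were −0.04 (interval −0.17 to 0.09) in males and −0.07 (interval −0.20 to 0.06) in females. The ratio of Ncor1 to Ncoa1 per length, corepressor to coactivator, was 2.86 ± 0.158 in mWT, 2.88 ± 0.135 in mKO, 2.89 ± 0.184 in fWT and 3.18 ± 0.247 in fKO mice (SD, n = 6).

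Med1 (ENSMUSG00000018160, chromosome 11, 98152154 to 98193293), the Mediator subunit that holds nuclear receptors, was at 35.5, 40.5 and 49.4 CPM in mWT, 33.1, 37.1 and 44.4 CPM in mKO, 34.0, 37.3 and 40.8 CPM in fWT and 32.1, 41.5 and 45.6 CPM in fKO mice. As with Ppara, fKO mice 2 and 3 were the lowest of their group (32.4 and 32.1 CPM) and the others lay between 40.2 and 45.6 CPM. The r of Med1 with Ppara within groups was 0.43, and −0.06 without these 2 mice. Its log2 fold change was −0.10 (interval −0.30 to 0.11) in males and 0.08 (interval −0.12 to 0.29) in females, where it was 0.22 without the 2 mice (unadjusted p = 0.0309, adjusted p = 0.806).

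Ppargc1b (ENSMUSG00000033871, chromosome 18, 61298136 to 61400431), the coactivator tied to mitochondrial and lipogenic genes, was the most variable member, with an SD of 38.3% of its mean over all mice. It was at 2.42, 4.63 and 10.4 CPM in mWT and 3.65, 4.33 and 5.53 CPM in mKO mice, and mWT mice 1 and 3 were at 10.4 and 7.80 CPM. The male KO effect of −0.30 (interval −0.82 to 0.23) was within this spread and was −0.02 without mWT mouse 1 (unadjusted p = 0.922). The female one was −0.14 (interval −0.67 to 0.39). Its r within groups was 0.64 with Nr1d1, 0.47 with Dbp, 0.30 with Tef, 0.19 with Per3, −0.02 with Clock and −0.09 with Arntl. Among stellate markers it was 0.69 with Reln, which was named after its value was seen. It was 0.48 with Dcn, 0.45 with Colec11, 0.24 with Lrat and −0.20 with Rgs5, so these markers leaned with it except for Rgs5. The r with the remaining stellate markers was not taken.

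Target genes of PPARα were set beside the receptor. For mKO against mWT 30 of 34 targets had positive estimates and their median was 0.17 on the log2 scale (all tested genes −0.00), whereas the estimate for Ppara itself was negative. None passed the adjusted threshold, and 5 had an unadjusted p under 0.01 (3.52% of all tested genes did), all with positive estimates. Plin2, which coats lipid droplets, was at 395 ± 49.8 in mKO and 266 ± 83.2 CPM in mWT mice (SD, n = 6), and its log2 fold change was 0.57 (adjusted p = 0.101 in edgeR). Cyp4a14, a fatty acid ω-hydroxylase, was at 56.2, 249 and 687 CPM in mKO and 7.06, 21.3 and 185 CPM in mWT mice, and its log2 fold change was 2.85 (adjusted p = 0.152). The male minus the female KO effect was 3.28 for Cyp4a14, which did not pass the adjustment (adjusted p = 0.816). In females 12 of 34 targets had positive estimates, the median was −0.04 and 0 had an unadjusted p under 0.01.

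Within groups the targets leaned with the receptor. The median r of the 34 targets with Ppara was 0.33, against −0.02 over all tested genes, and 32 of 34 were above 0. Without fKO mice 2 and 3 the median was 0.40 and 33 of 34 were above 0. With all mice it was highest for Cpt1a (0.80), the gate of fatty acids into mitochondria, and lowest for Pdk4 (−0.42), named here, like Cpt1a, after its value was seen. Without the 2 mice Cpt1a was at 0.63 and Pdk4 at 0.13. Between mKO and fKO mice 9 of 34 targets were called higher and 3 lower in males (14.4% of all tested genes were called). Fitm1 (3.0, adjusted p = 1.72e-08) and Acaa1b (0.95, adjusted p = 3.28e-06) led the first, and Slc27a1 (−0.77, adjusted p = 0.00231) and Acot3 (−3.97, adjusted p = 0.00849) the second. In WT mice 6 of 34 targets were called higher and 8 lower in males (17.3% of all tested genes were called). Fitm1 (2.29, adjusted p = 9.82e-07) and Cyp2u1 (2.46, adjusted p = 6.83e-06) led the first, and Slc27a1 (−0.95, adjusted p = 0.000231) and Cyp4a10 (−2.28, adjusted p = 0.000739) the second.

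**Figure D5:**
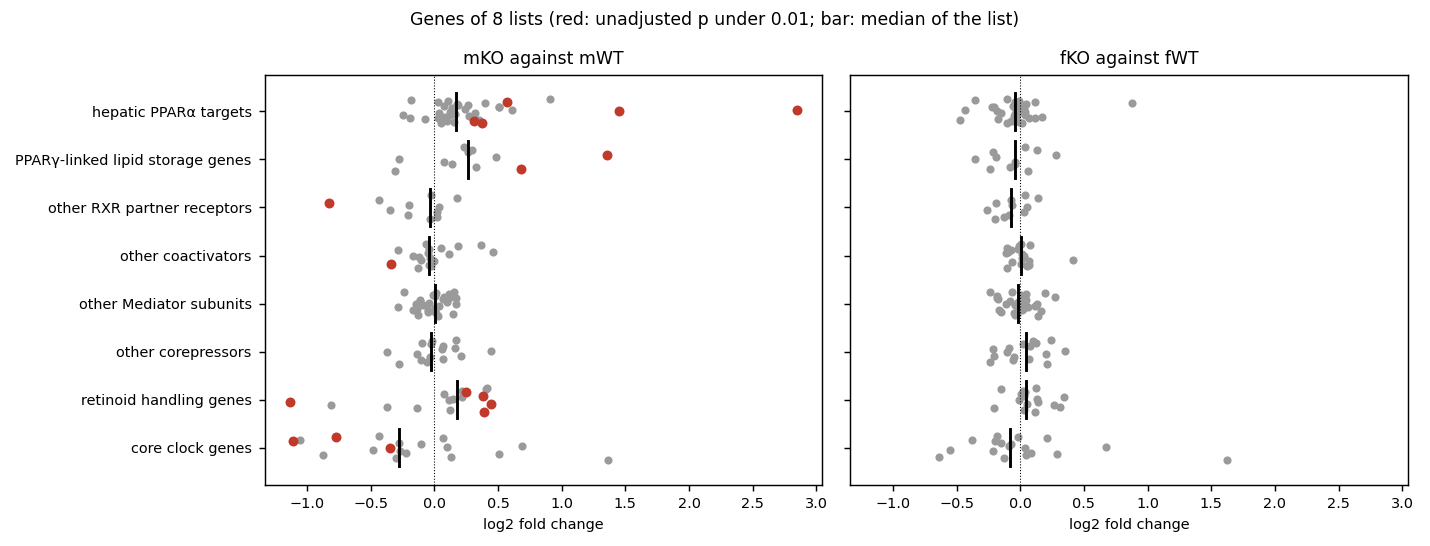
Log2 fold change of the tested genes of 8 lists for mKO against mWT and fKO against fWT, with red points for an unadjusted p under 0.01 and a bar at the median of each list. In males the PPARα targets have their median at 0.17 and 5 red points, and in females no list has a red point.

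Of the 11 tested lipid storage genes linked to PPARγ 9 had positive estimates in mKO mice (median 0.26). Mogat1, a triglyceride synthesis enzyme, had a log2 fold change of 1.35 (adjusted p = 0.111 in edgeR) and the fatty acid transporter Cd36 one of 0.68 (adjusted p = 0.215), neither past the threshold. In females 4 of 11 were positive (median −0.04). In WT mice 2 of the 11 genes were called higher in males (17.3% of all tested genes were called). These were Lpl (0.91, adjusted p = 0.00655), which frees fatty acids from lipoproteins, and Scd1 (1.24, adjusted p = 0.0242). In KO mice 4 of the 11 were (14.4% of all tested genes), led by Lpl (1.59, adjusted p = 2.42e-05) and Mogat1 (1.58, adjusted p = 0.00178).

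Partners of RXR other than the PPARs held the retinoic acid receptor gene Rarb, which was lowest in mKO mice. It was at 1.31, 1.62 and 2.75 CPM in mKO, 1.94, 3.29 and 3.98 CPM in mWT, 3.83, 5.65 and 6.77 CPM in fWT and 3.45, 4.33 and 6.90 CPM in fKO mice. Its log2 fold change was −0.83 in males (SE 0.218, adjusted p = 0.126 in edgeR) and −0.19 in females (adjusted p = 0.946). Between the sexes it was called lower in males, by −0.80 in WT (adjusted p = 0.00584) and by −1.44 in KO mice (adjusted p = 1.67e-05), where the groups did not overlap. The xenobiotic receptor gene Nr1i3 was lower in males as well, at −0.84 in WT (adjusted p = 0.0144) and −0.93 in KO mice (adjusted p = 0.00824).

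Of 16 tested retinoid handling genes 4 had a positive and 1 a negative estimate at an unadjusted p under 0.01 in males, and 0 were called. Of all tested genes 3.52% had such a p. Rdh7, a retinol dehydrogenase, had a log2 fold change of 0.25 (adjusted p = 0.143), with no overlap between mKO and mWT mice, as for 1.09% of tested genes and 0 of the 10 members (0.349% and 0 members in females). Aldh1a1 and Aldh1a7 were called higher in males and Rdh9 lower in both genotypes.

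The larger families of coregulators were examined in the same way. In males 0 of 29 other Mediator subunits and 0 of 16 other corepressors had an unadjusted p under 0.01, which 3.52% of all tested genes had. Of 19 other coactivators 1 did, Ep300, a histone acetyltransferase, at −0.34 (adjusted p = 0.130 in edgeR). A share of 1 in 19 is not set apart from that background. The medians of these lists in males were 0.00, −0.02 and −0.04. Between WT sexes 2 Mediator subunits (Ccnc at 0.21 and Med13 at 0.20), 2 corepressors (Tbl1x at 0.26 and Lcor at 0.38) and 2 coactivators (Ncoa4 at 0.31 and Ncoa7 at −0.74) were called, each a share below the 17.3% of all tested genes. Between KO sexes (14.4% of all tested genes called) Med15 and Med8 were called among the Mediator subunits, and 0 corepressors and 0 coactivators. Of the 18 clock genes tested, 0 were called in males (0.211% of all tested genes). With negative estimates 3 had an unadjusted p under 0.01 (3.52% of all tested genes), among them Per2 (−1.11, adjusted p = 0.216 in edgeR).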

How the data were processed

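Liver RNA of 24 mice was sequenced from stranded mRNA libraries in a single multiplex as 100 bp single-end reads. Per the labels and the study's methods, the authors demultiplexed with bcl2fastq 2.19, trimmed with fastp 0.20, aligned to GRCm38.p6 with STAR 2.7a and counted reads per gene, and they deposited raw counts without normalization. The annotation release and strand setting are not given in the sources used here. Symbols, lengths and coordinates came from GENCODE M21 (25635 of 25746 genes matched).

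Genes were kept where 6 or more libraries had 0.66 CPM or more (12330), and 1 model with a mean for each group was fitted to all libraries with edgeR 4.0.16 (TMM, robust quasi-likelihood test) in R 4.3.3, after a test on simulated data. P-values were adjusted over all tested genes by Benjamini-Hochberg, and an adjusted p under 0.05 was called. Intervals are 95% intervals of the fitted fold change. Correlations used log2(CPM + 0.5). All replicate pairs differed by more than sampling noise (lowest chi-square per gene 7.67).

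The members and lists were chosen with earlier results of these data known. Named genes are all members, from each list up to 2 genes per direction with the lowest p among those called (or up to 2 with an unadjusted p under 0.01 where none was), and the 3 most and 3 least correlated genes for Ppara, Rxra and Pparg. Alternatives were DESeq2 1.42.0, other size factors and filters, non-robust dispersions, fits of the compared groups alone, removal of the Mup genes, the mouse number as a block, and each mouse left out. The Arntl covariate and the fit without fKO mice 2 and 3 were chosen after seeing the data. Each library is 1 mouse, and total counts ranged from 15361901 to 26261394. Methylation and phenotype data were not analysed here. Some genes that the naming rule picks are not reported here. Figures were drawn with matplotlib 3.10.9.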

Additional observations from a re-analysis of the deposited data

Results flagged for a closer look

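The KO effect on Ppara in males minus that in females was −0.55 on the log2 scale, with an unadjusted p of 0.0126 in edgeR. It is given here because that p is under 0.05, so the p is not independent of the choice. The estimates in the sexes were −0.31 and 0.24. The adjusted p was 0.816 in edgeR, so the difference fails the correction over all genes. It kept its sign in all 35 alternative fits, between −0.78 and −0.39, and had an unadjusted p under 0.05 in all 35 of them, with an adjusted p under 0.05 in 1, the fit without fKO mice 2 and 3. A mouse set apart from the 5 others of its group was searched for in all 40 combinations of member and group by Dixon's criterion at 95%, and 0 were found, which covers a single mouse at the edge of a group and would not find a pair such as fKO mice 2 and 3 in Ppara.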

How the results depend on the processing

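Of 2140 fold changes of members under the alternatives, 2121 stayed on their side of the adjusted threshold, 19 passed it where the reported fit did not and 0 lost a call. The sign changed in 73 fits, in none of which the p was under 0.05 unadjusted. For the male KO, the female KO and the KO over all mice the count of called members was 0 in every alternative. It was 1 in place of 0 for the interaction without fKO mice 2 and 3 (Ppara). For mWT against fWT it was 2 in place of 1 with only these groups, with the Arntl covariate and without fKO mice 2 and 3, and 1 to 3 with 1 mouse left out. For mKO against fKO it was 1 in place of 0 with DESeq2, with DESeq2's size factors, with non-robust dispersions, without the Mup genes, with the Arntl covariate and without fKO mice 2 and 3, and 0 to 2 with 1 mouse left out. The cause was not tested.

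The mouse numbers of the labels were not taken as pairs. The correlation of same-numbered mice ranged from −0.335 to 0.253 (median −0.00193). For mice of other groups with other numbers it ranged from −0.308 to 0.322 (median −0.00631). These values cannot show how the mice were matched by litter or cage. With the number as a replicate block 1 member was called for mWT against fWT and 0 in the other comparisons. Over all genes the calls in males were 142 with DESeq2 and 2 without the Mup genes in place of 26, and 98 without fKO mice 2 and 3, and they reached 59 without mWT mouse 1. In females they were 18 with DESeq2 and 0 without the Mup genes in place of 11, over all mice 48 and 1 in place of 21, and for the interaction 23 without fKO mice 2 and 3 and 10 with DESeq2 in place of 1. Per coding length in place of exon length, Rxra made up 94.1 to 94.7% of the RXR level in the groups (90.4 to 91.5% per exon length) and Ppard 3.40 to 3.88% of the PPAR level (1.62 to 1.86%). The spread between mice limits Pparg, Rxrg and Ppargc1b most, and the count Rxrg.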
